A study of Mus musculus with 8 samples.

Results

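Malat1, Neat1, Meg3, Miat, Rian, Mirg, Snhg11 and Pvt1 are 8 genes of long noncoding RNAs that are known to stay largely in the nucleus. They were picked by gene symbol, and all 8 were found among the 24420 genes present in every count table. All 8 also passed the filter on low counts, which left 14809 genes tested. No nuclear fraction was prepared, so their place in the cell was not measured. By mean share of reads, which also grows with a gene's length, Meg3 ranked 6, Snhg11 16, Malat1 95, Rian 162 and Miat 237 among all 24420 genes. Neat1 ranked 6008, Mirg 9069 and Pvt1 10566, so that these 3 were not abundant in these poly(A) libraries. GENCODE M21 lists Snhg11 as protein coding and the other 7 as noncoding.

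Poly(A) RNA from prefrontal cortical slices of male mice was sequenced in 8 libraries. The question was how loss of part of the synaptic scaffold gene Shank3 changes expression, and what the histone deacetylase inhibitor romidepsin does in such mice. Both Shank3-deficient groups were heterozygous Shank3+/ΔC mice, which carry 1 copy lacking exon 21. The 2 romidepsin libraries came from Shank3-deficient mice given 0.25 mg/kg by intraperitoneal injection on each of 3 days. The 3 saline libraries came from Shank3-deficient mice given saline, and the 3 wild-type libraries from age-matched littermates for which the labels name no treatment. The sample labels give an age of 5 to 6 weeks and the series' design text one of 5 to 8 weeks. Mice of both Shank3-deficient groups were killed 1 day after the final injection. Separate animals are not named for the libraries, and the p-values therefore cover the spread between libraries, which may be technical.

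Gene counts came to between 7783538 and 15156318 for each library. The labels give the cell type as neurons, but the 8 astrocyte markers summed to 6238 to 6510 CPM in romidepsin, 5721 to 7174 in saline and 5626 to 7402 in wild-type libraries. CPM are read counts scaled to a library total of 1000000 after TMM normalization. The 10 pan-neuronal markers summed to 8293 to 8492, 7628 to 8527 and 7112 to 9040 CPM in romidepsin, saline and wild-type libraries, so the slices held both neurons and glia. Shank3 itself stood at 315 and 313 CPM in romidepsin, 316, 252 and 301 in saline, and 299, 308 and 348 in wild-type libraries; whole-gene counts do not check the loss of 1 exon. Saline replicate 2 and wild-type replicate 3 stood apart from the rest in both directions. Of all tested genes, 21.2% were at their lowest and 20.2% at their highest in saline replicate 2. In wild-type replicate 3, 21.2% were at their lowest and 21.1% at their highest, beside 6.19% to 12.3% for either extreme in the other libraries. Rn45s, the ribosomal RNA precursor, held 1.12% of the counts of saline replicate 2, against 0.316% to 0.611% elsewhere.

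Long noncoding RNAs of the nucleus act as scaffolds, as hosts of smaller RNAs, or at the place where they are made. Malat1 gathers in nuclear speckles, the stores of splicing factors, and Neat1 is the core of paraspeckles. Meg3, Rian and Mirg are made from the maternal copy of the imprinted Dlk1-Dio3 region; Rian hosts small nucleolar RNAs and Mirg microRNAs. Miat is a neuronal RNA that forms its own nuclear domains and binds splicing factors, Snhg11 is a small nucleolar RNA host made mostly in neurons, and Pvt1 lies beside the growth gene Myc.

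Malat1 (chromosome 19, minus strand) and Neat1 are neighbours with a gap of 22.0 kb between them. The end of mature Malat1 is known not to be a usual poly(A) tail: the RNA is cut before a transfer-RNA-like stretch, and an A-rich run folds into a triple helix. The stretch is shown because the libraries were made from poly(A) RNA; capitals mark the run of 12 A, which ends 298 bases before the end annotated in GENCODE M21 (GRCm38, chr19:5795913-5796109, minus strand).
Malat1 stretch: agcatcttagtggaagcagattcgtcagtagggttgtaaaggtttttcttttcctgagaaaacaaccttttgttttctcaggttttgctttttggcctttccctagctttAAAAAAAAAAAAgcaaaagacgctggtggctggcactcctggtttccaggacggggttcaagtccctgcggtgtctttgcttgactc
Of the longest transcripts of at least the same length, 43.9% hold a run of 10 or more A. Neat1 is a single exon of 20771 bases whose longest run of A has 7.

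Miat (chromosome 5, minus strand) is known for copies of ACTAAC, a branch-point-like motif read by splicing factors. Its longest GENCODE transcript, of 9163 bases, holds 11 matches on the transcript strand, the first starting at base 4942 and the last at base 6852. Of 658 longest transcripts at least as long, 1.37% hold as many. The stretch with the first 4 matches is shown with them in capitals (GRCm38, chr5:112217309-112217459, minus strand).
Miat stretch: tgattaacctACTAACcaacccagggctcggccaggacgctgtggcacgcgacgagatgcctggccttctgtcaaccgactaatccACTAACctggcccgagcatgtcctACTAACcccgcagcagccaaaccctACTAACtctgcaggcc
The longest transcripts of the other members hold 0 to 4 matches. In Miat, 24.3% of the exonic bases overlap exons of Gm26953 on the opposite strand. The strand setting of the counting is not given in the sources used here, so reads of the pair cannot be told apart. Such overlap covers 6.79% of Meg3 (Gm26906) and 6.49% of Malat1 (Gm37376).

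Meg3, Miat and Snhg11 moved together across libraries, as described further on, so their promoters are shown side by side, from 250 bases before the RefSeq start to 50 after it. Searched on both strands were the TATA box (TATAAA), the CCAAT box, the GC box (GGGCGG), the core of the cyclic AMP response element (TGACGT) and the E-box (CACGTG), and capitals mark every match. In Meg3, the matches to TGACGT on both strands make up TGACGTCA, the cyclic AMP response element, which 1.79% of 32851 mouse promoters hold; TGACGT alone is held by 7.51%. Meg3 also holds TATAAA (13.6% of promoters) and CCAAT (37.4%). A second promoter listed for Meg3, at chr12:109545148-109545447, holds none of the 5 motifs and is not shown. The sequences are RefSeq, GRCm38.p6: Meg3 at chr12:109540746-109541045 on the plus strand, Miat at chr5:112228899-112229198 on the minus strand and Snhg11 at chr2:158375463-158375762 on the plus strand.
Meg3 promoter: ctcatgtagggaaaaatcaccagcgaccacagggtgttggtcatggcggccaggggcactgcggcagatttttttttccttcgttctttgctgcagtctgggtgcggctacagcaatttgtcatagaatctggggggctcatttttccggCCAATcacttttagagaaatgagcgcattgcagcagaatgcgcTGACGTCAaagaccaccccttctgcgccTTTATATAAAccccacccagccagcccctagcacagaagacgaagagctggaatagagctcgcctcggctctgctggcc
Miat promoter: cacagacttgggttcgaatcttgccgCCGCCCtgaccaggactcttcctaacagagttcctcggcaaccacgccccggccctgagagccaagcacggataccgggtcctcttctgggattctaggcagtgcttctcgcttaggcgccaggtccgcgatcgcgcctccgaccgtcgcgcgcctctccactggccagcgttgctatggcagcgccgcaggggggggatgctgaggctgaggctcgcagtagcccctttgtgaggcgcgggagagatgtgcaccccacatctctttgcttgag
Snhg11 promoter: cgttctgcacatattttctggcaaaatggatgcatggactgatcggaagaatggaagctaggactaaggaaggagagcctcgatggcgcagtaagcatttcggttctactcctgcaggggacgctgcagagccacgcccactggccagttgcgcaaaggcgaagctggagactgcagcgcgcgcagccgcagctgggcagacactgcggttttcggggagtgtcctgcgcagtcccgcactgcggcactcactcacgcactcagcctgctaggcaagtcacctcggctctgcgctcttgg
Miat holds GGGCGG once, on the strand opposite to the one shown, and Snhg11 holds none of the 5 motifs. Of all promoters, 35.7% hold GGGCGG. No motif searched was shared by these 3 promoters. Promoters were matched for 6 of the 8 genes, Neat1 and Pvt1 being without one. In Malat1, TGACGT matched once on each strand, and in Mirg CCAAT matched once. Rian held none of the motifs.

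By the GENCODE M21 gene spans and exons, Mirg spans 14 annotated microRNA hairpins, 4 of them wholly inside its exons, and Rian 3, none of them wholly inside an exon. RefSeq starts Mirg later, at base 109734981, so miR-134-5p and miR-485-3p lie before the RefSeq start. Mature forms from the 4 hairpins exonic in GENCODE, and the pair that shares a seed, are shown with bases 2 to 8 in capitals. These bases are the seed that pairs with targets. The mature sequences are from RefSeq (GRCm38.p6, chromosome 12, plus strand).
mmu-miR-134-5p: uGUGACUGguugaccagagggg
mmu-miR-485-3p: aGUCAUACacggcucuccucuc
mmu-miR-377-3p: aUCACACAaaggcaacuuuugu
mmu-miR-410-3p: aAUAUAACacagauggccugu
mmu-miR-453: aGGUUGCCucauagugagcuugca
mmu-miR-496a-5p: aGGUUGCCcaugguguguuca
Only miR-453 and miR-496a-5p share a seed among the mature forms listed for Meg3, Rian and Mirg. The libraries measure precursor reads that fall on hairpin rows, not mature microRNAs.

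None of the 8 RNAs passed the edgeR quasi-likelihood test (Benjamini-Hochberg adjusted p under 0.05) in any of the 3 comparisons. All 8 had a log2 fold change below 0 in saline against wild type, as did 48.7% of all tested genes. In romidepsin against saline 7 of 8 were above 0 (49.0% of tested genes), but 4 of 8 without saline replicate 2. In romidepsin against wild type all 8 were below 0 (50.0% of tested genes), and 6 of 8 without wild-type replicate 3. The share of all tested genes that passed was 0.00675% (1 gene) for saline against wild type, 0% for romidepsin against saline and 0.00675% (1 gene) for romidepsin against wild type. Each group's libraries stand in 2 of the 3 comparisons, so the directions depend on each other. By unadjusted p under 0.05, 1242 genes differed in saline against wild type, 483 in romidepsin against saline and 480 in romidepsin against wild type, and DESeq2 called 31, 2 and 4 genes, with 0 members among them. In saline against wild type 0 of 8 members had groups that did not overlap, beside 12.6% of tested genes in either direction. The numbers were 0 of 8 beside 20.9% in romidepsin against saline, and 1 of 8 beside 18.4% in romidepsin against wild type.

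**Figure D1:**
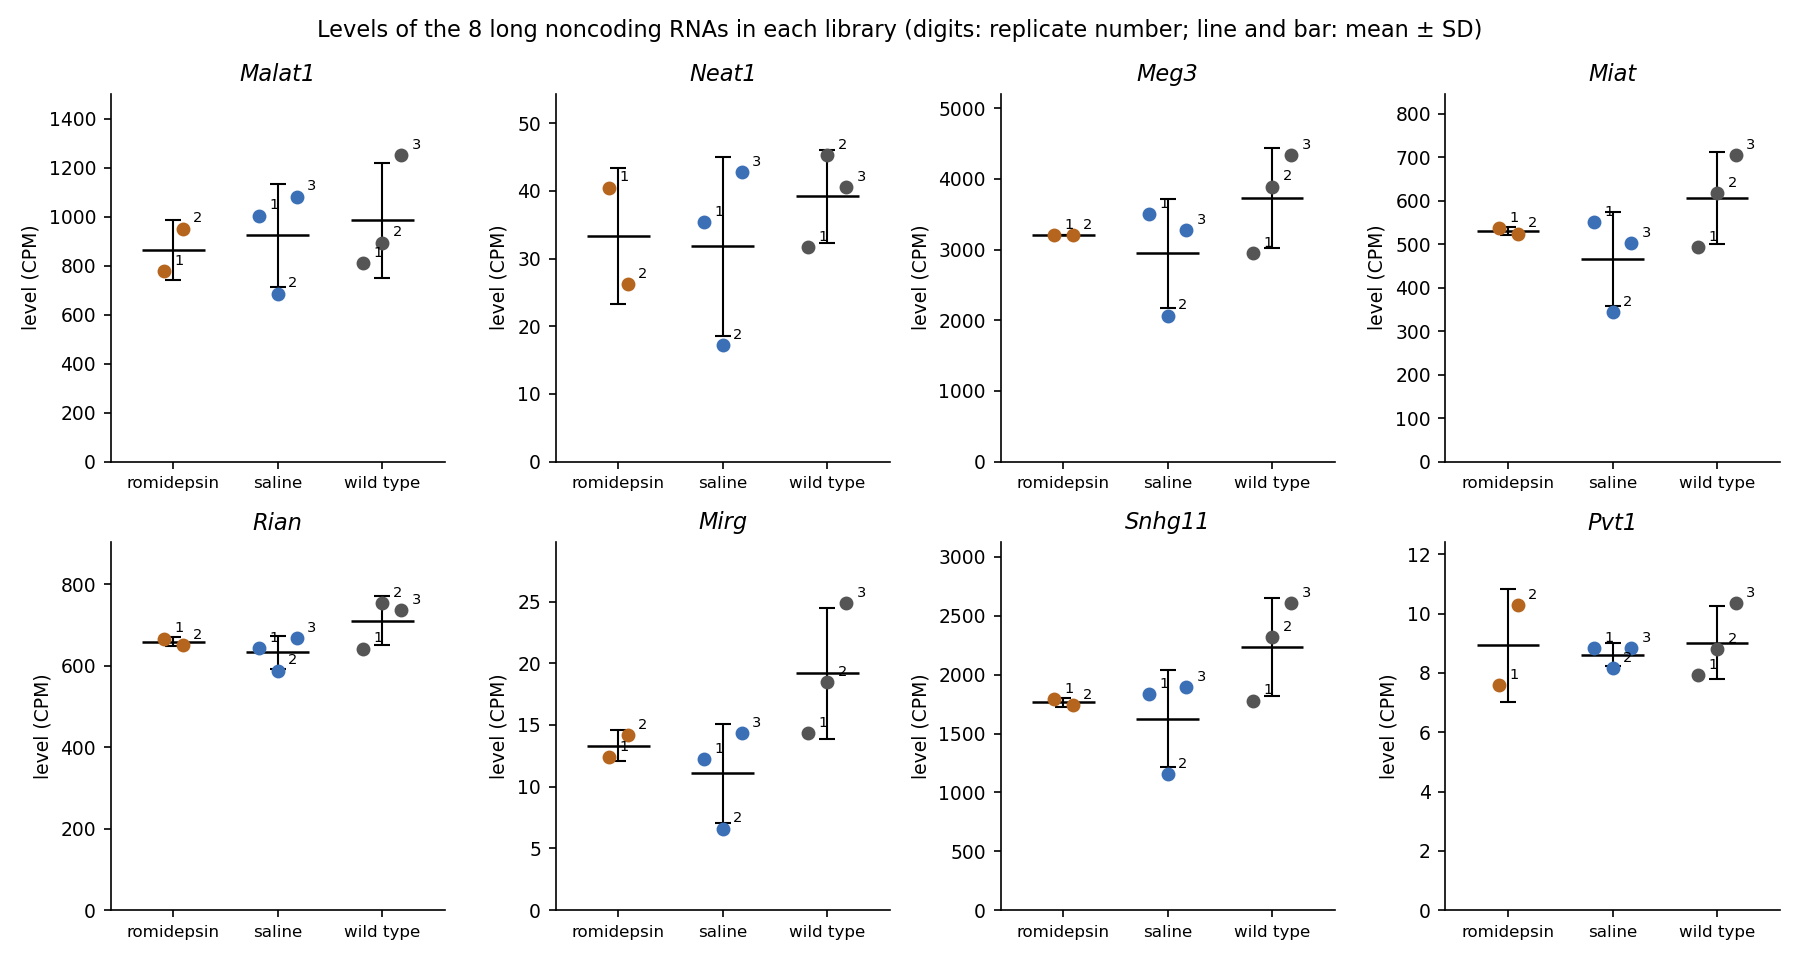
Level (CPM) of each of the 8 RNAs in the romidepsin, saline and wild-type libraries, left to right; points are libraries with their replicate number, lines are means and bars SD (n = 2, 3 and 3). Saline replicate 2 is the lowest point for 7 of 8 RNAs, Pvt1 excepted, and wild-type replicate 3 the highest for 6 of 8.

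Malat1, the speckle RNA, stood at 777 and 951 CPM in romidepsin libraries, at 1005, 687 and 1082 in saline libraries, and at 811, 894 and 1253 in wild-type libraries. The 3 groups overlapped, with wild-type replicate 3 the highest and saline replicate 2 the lowest. The log2 fold change was -0.09 (SE 0.20, adjusted p = 0.929) for saline against wild type and -0.10 (SE 0.22, adjusted p = 1.00) for romidepsin against saline. Malat1 was the 1 member with a lower mean in romidepsin than in saline libraries. Without both saline replicate 2 and wild-type replicate 3, its log2 fold change for saline against wild type was 0.29. These libraries were chosen after their values were seen and hold Malat1's lowest saline and highest wild-type level, so the upward move is built into that choice.

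Neat1, the paraspeckle RNA, stood at 40.5 and 26.2 CPM in romidepsin libraries, at 35.4, 17.2 and 42.8 in saline libraries, and at 31.8, 45.3 and 40.6 in wild-type libraries. Its spread within groups was the widest of the 8 relative to its mean in the saline group (CV 41.5%), and its biological coefficient of variation of 27.7% exceeded that of 97.4% of tested genes. For saline against wild type the log2 fold change was -0.31 (SE 0.32), and the 95% interval of the fold, 0.479 to 1.36, included 1.

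Meg3, a maternally expressed RNA known to bind chromatin regulators, took the most reads of the 8. It stood at 3204 CPM in both romidepsin libraries, at 3504, 2065 and 3274 in saline libraries, and at 2953, 3891 and 4339 in wild-type libraries. Saline replicate 2 lay far under the other saline libraries, and the groups overlapped through wild-type replicate 1. The log2 fold change was -0.34 (SE 0.19, adjusted p = 0.652) for saline against wild type and 0.12 (SE 0.21) for romidepsin against saline. Without saline replicate 2 these were -0.14 and -0.08.

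Rian, the host of small nucleolar RNAs next along the locus, varied least among the libraries. It stood at 667 and 651 CPM in romidepsin libraries, at 644, 588 and 667 in saline libraries, and at 642, 753 and 736 in wild-type libraries. Its highest library was 1.28 times its lowest, against 3.76 times for Mirg. The log2 fold change for saline against wild type was -0.17 (SE 0.08, unadjusted p = 0.0635 in edgeR).

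Mirg, the microRNA host at the far end of the cluster, showed the largest fold changes of the 8. It stood at 12.4 and 14.2 CPM in romidepsin libraries, at 12.3, 6.60 and 14.4 in saline libraries, and at 14.3, 18.5 and 24.9 in wild-type libraries. Saline replicate 3 and wild-type replicate 1 were nearly equal, so these groups overlapped, while both romidepsin libraries lay under every wild-type library. The log2 fold change was -0.80 (SE 0.25, unadjusted p = 0.00922, adjusted p = 0.418 in edgeR) for saline against wild type. It was -0.53 (SE 0.28, adjusted p = 0.999) for romidepsin against wild type and 0.27 (SE 0.30) for romidepsin against saline. Mirg was the only member whose groups did not overlap in a comparison, romidepsin against wild type, where 9.08% of tested genes were lower without overlap. Without both saline replicate 2 and wild-type replicate 3 the first value was -0.32.

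Miat, the RNA with the ACTAAC copies, stood at 537 and 524 CPM in romidepsin libraries, at 551, 343 and 502 in saline libraries, and at 494, 617 and 705 in wild-type libraries. The log2 fold change was -0.38 (SE 0.17, unadjusted p = 0.0454, adjusted p = 0.581 in edgeR) for saline against wild type. Wild-type replicate 1 lay under saline replicates 1 and 3, so the groups overlapped. Without saline replicate 2 the value was -0.20, and without that and wild-type replicate 3 it was -0.08.

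Snhg11, the neuronal host RNA, stood at 1794 and 1740 CPM in romidepsin libraries, at 1838, 1152 and 1891 in saline libraries, and at 1779, 2321 and 2605 in wild-type libraries. As for Miat, wild-type replicate 1 lay among the Shank3-deficient libraries. Saline against wild type gave a log2 fold change of -0.46 (SE 0.18, unadjusted p = 0.0297, adjusted p = 0.533 in edgeR), followed by -0.34 (SE 0.21) for romidepsin against wild type and 0.12 (SE 0.20) for romidepsin against saline. Without saline replicate 2 the first was -0.26 and the last -0.08.

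Pvt1, the neighbour of Myc, stood at 7.59 and 10.3 CPM in romidepsin libraries, at 8.85, 8.17 and 8.85 in saline libraries, and at 7.92, 8.81 and 10.3 in wild-type libraries. Its lowest library was romidepsin replicate 1, and saline replicate 2 lay within the range of the rest. Its highest was wild-type replicate 3, as for Malat1, Meg3, Miat, Mirg and Snhg11. The log2 fold changes were -0.07 (SE 0.17) for saline against wild type, 0.05 (SE 0.19) for romidepsin against saline and -0.02 (SE 0.19) for romidepsin against wild type.

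**Figure D2:**
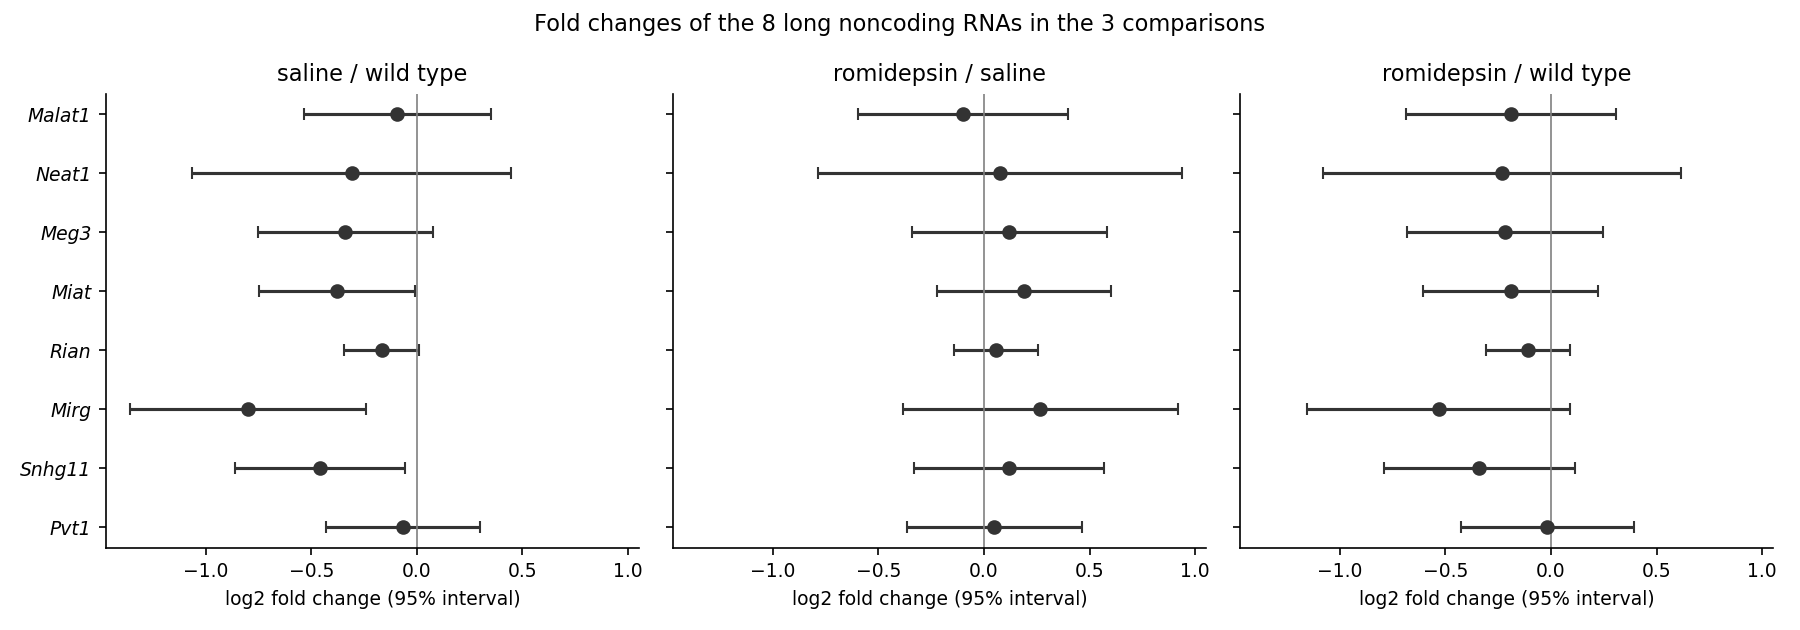
Log2 fold change of each RNA (dots) with its 95% interval (bars) in the 3 comparisons, from 1 edgeR fit. The intervals lie below 0 for Miat, Mirg and Snhg11 in saline against wild type, before adjustment over genes, and include 0 for every member in both other comparisons.

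At an unadjusted p under 0.05, 3 of 8 members (Miat, Mirg and Snhg11) were lower in saline than in wild-type libraries, where 4.80% of all tested genes were lower and 3.59% higher at that level. That count was 1 of 8 without saline replicate 2, without wild-type replicate 2, without wild-type replicate 3, or with no filter on low counts. It was 2 of 8 under upper-quartile scaling and under total counts, 4 of 8 without saline replicate 1 and 5 of 8 without wild-type replicate 1. In romidepsin against saline the number was 0 of 8 (background 3.26%). In romidepsin against wild type it was 0 of 8 (background 3.24%). There it was 2 of 8 (Mirg and Snhg11) with only these 2 groups fitted, without wild-type replicate 1 or without saline replicate 2, and 1 of 8 (Mirg) in DESeq2. The members' median log2 fold change was -0.32 for saline against wild type, beside a median of 0.0047 over all tested genes. It was 0.10 for romidepsin against saline and -0.20 for romidepsin against wild type, where it was -0.10 without wild-type replicate 3. These medians rested on few libraries. For saline against wild type the median was -0.13 without saline replicate 2, -0.24 without wild-type replicate 3 and -0.04 without both, with 3 members then higher and 5 lower. For romidepsin against saline it was -0.03 without saline replicate 2, with 4 members higher and 4 lower. Miat, Mirg and Snhg11 varied together over the 8 libraries (Pearson r of 0.946 to 0.976 between them). The 3 of 8 are therefore not separate results, and an excess over the background was not tested.

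In level per length, CPM per kb of the longest transcript, the order was Snhg11 at a median of 310, Meg3 at 223, Malat1 at 132, Rian at 81.5, Miat at 57.9, Mirg at 3.73, Pvt1 at 2.66 and Neat1 at 1.83. The ranges over the 8 libraries of Snhg11 and Meg3 overlapped, as did those of Meg3 and Malat1, of Rian and Miat, and of Mirg and Pvt1. The ranges of Malat1 and Rian, of Miat and Mirg, and of Pvt1 and Neat1 did not. With the union of all exons as the length, Miat stood above Rian and Neat1 above Pvt1. Which transcripts were read was not measured. For Neat1, with 4 transcripts in GENCODE M21, both lengths are 20771 bases. Its level per length would be too low if its reads came from a shorter transcript, so its place as the lowest is uncertain.

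**Figure D3:**
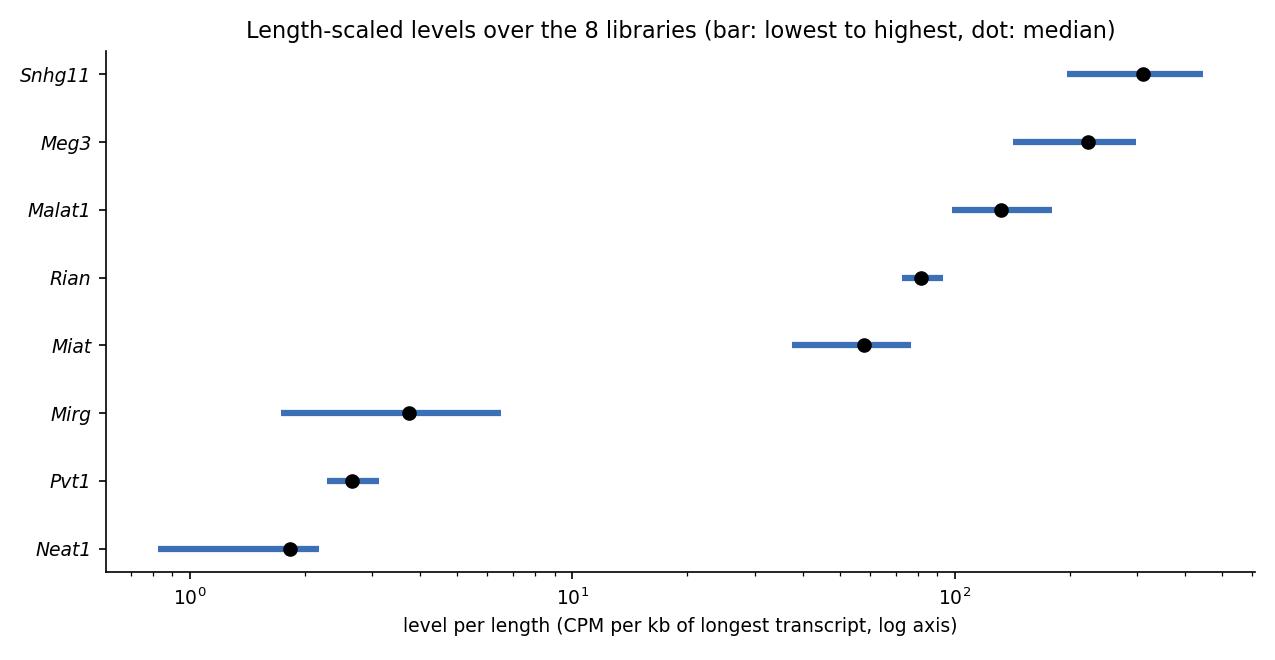
Level per length (CPM per kb of the longest GENCODE transcript, log axis) over the 8 libraries, with bars from the lowest to the highest library and dots at the median. Snhg11, Meg3, Malat1, Rian and Miat lie between 37.5 and 444 and Mirg, Pvt1 and Neat1 between 0.827 and 6.50.

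The summed counts of the 8 RNAs made up 0.705% and 0.702% of counts on genes in romidepsin libraries, 0.765%, 0.482% and 0.749% in saline libraries, and 0.664%, 0.855% and 0.994% in wild-type libraries. The 2 romidepsin libraries lay close together, saline replicate 2 lay far under the other saline libraries, and the wild-type libraries were spread widely. The exact binomial 95% interval, which covers counting error only, was 0.477% to 0.486% in saline replicate 2 and 0.989% to 1.00% in wild-type replicate 3.

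**Figure D4:**
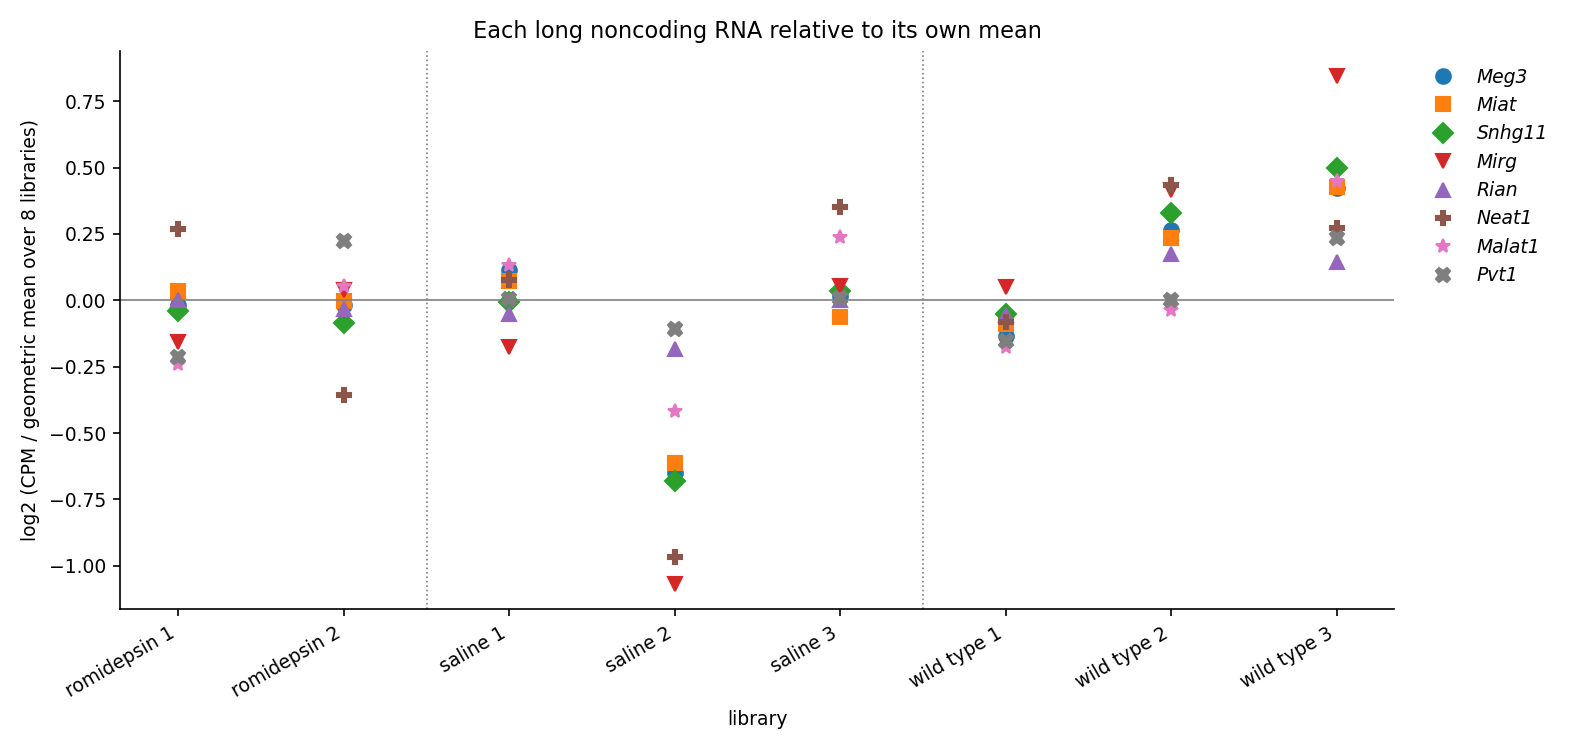
Each RNA's CPM divided by its own geometric mean over the 8 libraries, on a log2 axis, by library. In saline replicate 2 all 8 points lie under 0, Pvt1 and Rian nearest to it, and in wild-type replicate 3 all 8 lie above it.

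Most members varied together from library to library. Of the 28 pairs, 20 had a Pearson correlation of log2 CPM over the 8 libraries with an adjusted p under 0.05 (exact permutation test, Benjamini-Hochberg over the 28), and 4 by Spearman's rho. The 10 pairs among Meg3, Miat, Rian, Mirg and Snhg11 had r of 0.897 to 0.990. The permutation takes no account of the 3 groups, so differences between groups enter r and p. As a description, r of deviations from group means was 0.0249 to 0.996 over the 28 pairs and 0.8125 to 0.996 over those 10. Pvt1 passed by r with 1 of the 7 others, Malat1 (r = 0.762, adjusted p = 0.0449, exact permutation test), where rho was 0.857 with an adjusted p of 0.05, at the threshold and not under it.

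How many pairs passed depended on a few libraries. Without the 2 libraries farthest from the median of the first gene of the pair, r of those 10 pairs was 0.526 to 0.954 and 0 of 28 pairs passed. Leaving out the farthest libraries narrows the range, which tends to lower r, and leaves fewer libraries. That 0 therefore cannot tell whether the pairs were related. With 1 library left out at a time, 1 to 18 pairs passed, 1 without saline replicate 2, 1 without wild-type replicate 2, 3 without wild-type replicate 3 and 12 without wild-type replicate 1. Malat1 with Miat had r = 0.753 (rho = 0.571, adjusted p = 0.0449 and 0.212, exact permutation test), and r = -0.06 without saline replicate 2 and wild-type replicate 3.

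**Figure D5:**
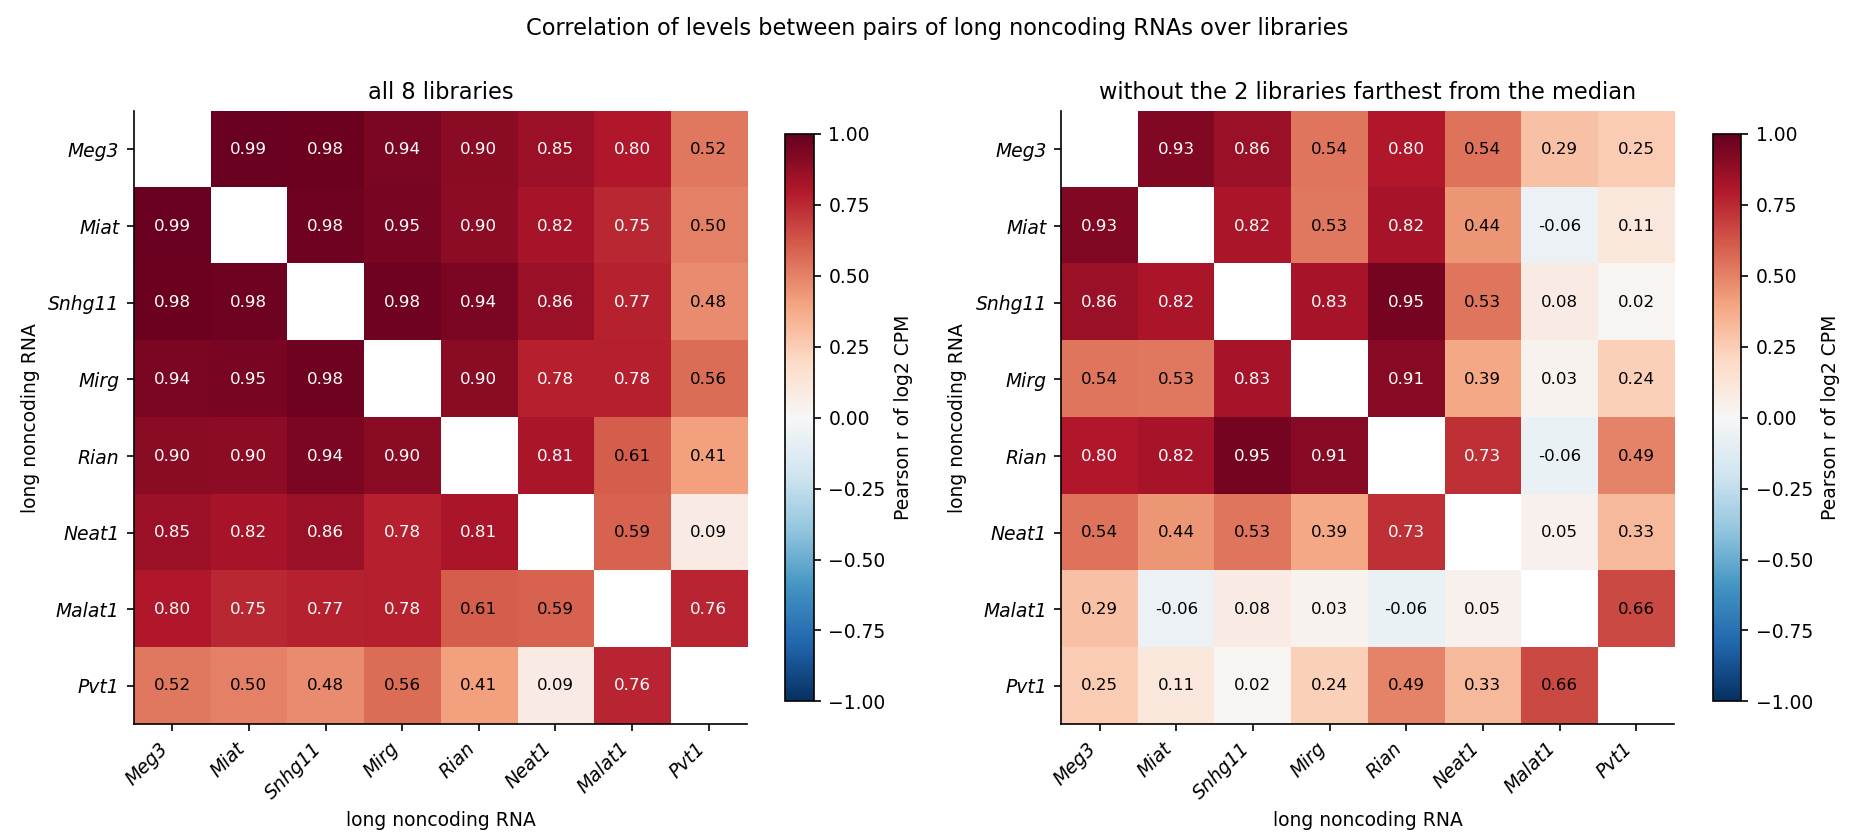
Pearson r of log2 CPM for each pair of RNAs, over all 8 libraries (left) and without the 2 libraries farthest from the median of the first gene (right). Meg3 and Miat keep r = 0.93 on the right, whereas Malat1 with Miat has r = 0.75 on the left and -0.06 on the right.

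Meg3, Miat and Snhg11, which lie on chromosomes 12, 5 and 2, kept nearly fixed proportions. The ratio of Meg3 to Miat CPM ran only from 5.97 to 6.53 over the 8 libraries, a span of 1.09 times, while Meg3 itself ran from 2065 to 4339 CPM. Meg3 to Snhg11 ran from 1.66 to 1.91 and Snhg11 to Miat from 3.32 to 3.77. Within the chromosome 12 cluster the proportions were looser: Meg3 to Rian ran from 3.51 to 5.89 and Meg3 to Mirg from 175 to 313. Rian starts 32.2 kb after the end of Meg3, and Mirg 68.1 kb after the end of Rian. Malat1 to Neat1, the neighbours on chromosome 19, ran from 19.2 to 39.9.

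The tested genes most like each member, by Pearson r of log2 CPM over the 8 libraries, are given as a description. For Snhg11 they were Fam193b (r = 0.995), Snrnp70, a protein gene of the U1 splicing particle (0.991), and Safb2 (0.990). For Mirg they were Atxn2l (0.990), Akap8l (0.987) and the complement regulator Cfp (0.986), and for Meg3 the splicing regulator Tia1 (0.986), Pigb (0.985) and Dzip1 (0.984). For Miat they were Gm7694 (0.988), Lrrfip1 (0.986) and Pigb (0.983), and for Rian Dpp7 (0.980), Urb1 (0.970) and Mir124a-1hg, the host of a neuronal microRNA (0.970). For Malat1 they were Plekha5 (0.962), Slx1b (0.961) and Ccnb2 (0.961), for Neat1 Tmem145 (0.984), 1700109H08Rik (0.979) and Gm20605 (0.977), and for Pvt1 2610203C22Rik (0.959), Nfya (0.956) and Tnfsf10 (0.945). Gm20605 (0.105 to 1.41 CPM), 1700109H08Rik (0.524 to 2.56 CPM) and Ccnb2 (0.629 to 2.12 CPM) took few reads, so their r rests on small counts. Of the 14801 other genes, r was above 0.9 for 1.59% with Snhg11 and Miat, 1.57% with Meg3, 1.41% with Mirg, 0.703% with Rian, 0.547% with Neat1, 0.432% with Malat1 and 0.0811% with Pvt1. All these genes share the same 8 libraries. All of those named for members other than Pvt1 were lowest in saline replicate 2. Fam193b had 58.6 CPM in saline replicate 2 and 135 CPM in wild-type replicate 3.

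Among protein genes of nuclear speckles and splicing, 0 of 50 passed in any comparison; 36 of 50 were lower in saline than in wild-type libraries (median log2 fold change -0.10) and 37 of 50 lower in romidepsin than in wild-type libraries (median -0.08). Of all tested genes, 48.7% were lower in saline and 50.0% lower in romidepsin than in wild-type libraries. At unadjusted p under 0.05 in saline against wild type, 5 were lower and 1 higher. Of all tested genes, 4.80% were lower and 3.59% higher at that level. These shares are the background for the lists that follow too, and an excess over them was not tested. The lists were not run with libraries left out. The cyclophilin-like Nktr had 125 ± 12.98 CPM in saline and 158 ± 23.6 in wild-type libraries (log2 fold change -0.34, unadjusted p = 0.00647, edgeR), and Bclaf1 138 ± 4.18 and 119 ± 2.65 CPM (0.22, unadjusted p = 0.00629, edgeR). The 50 genes' summed level was 6887 and 6887 CPM in romidepsin, 7025, 6527 and 6949 in saline, and 6780, 7258 and 7619 in wild-type libraries. Saline replicate 2 was again the lowest and wild-type replicate 3 the highest.

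Among paraspeckle proteins, the partners of Neat1, 0 of 32 tested passed, 17 of 32 were lower in saline than in wild-type libraries (median -0.03), and the summed level moved little, with 3245 and 3283 CPM in romidepsin, 3269, 3316 and 3298 in saline, and 3286, 3311 and 3319 in wild-type libraries. The core paraspeckle protein gene Sfpq had 159 ± 8.15 CPM in saline and 186 ± 8.37 in wild-type libraries (log2 fold change -0.22, unadjusted p = 0.00830, adjusted p = 0.417 in edgeR). Hnrnph1 had 170 ± 6.17 and 202 ± 16.2 CPM (-0.25, unadjusted p = 0.00653, edgeR). At unadjusted p under 0.05 in this comparison, 3 were lower and 2 higher, beside 4.80% and 3.59% of all tested genes. Hnrnpr was among the higher, with 96.2 ± 8.37 and 82.4 ± 2.63 CPM (0.22, unadjusted p = 0.0125, edgeR).

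Of the processing and retention factors, such as the microRNA processing genes and the nuclear export genes, 0 of 29 passed, with 17 lower in saline than in wild-type libraries (median -0.02). The export receptor gene Nxf1 had 76.5 ± 11.6 CPM in saline and 98.1 ± 15.7 in wild-type libraries (log2 fold change -0.35, unadjusted p = 0.0136, edgeR). Elac2, a nuclease of tRNA ends, had 31.1 ± 0.719 and 36.1 ± 1.61 CPM (-0.22, unadjusted p = 0.0253, edgeR). At unadjusted p under 0.05 in this comparison, 5 of these factors were lower and 1 higher, beside 4.80% and 3.59% of all tested genes.

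Among other long noncoding RNAs, 0 of 37 tested passed in any comparison, 20 were lower and 17 higher in saline than in wild-type libraries (median log2 fold change -0.03), and 26 were lower in romidepsin than in wild-type libraries (median -0.09). Mir124a-1hg had 155 ± 35.8 CPM in saline and 225 ± 41.5 in wild-type libraries (log2 fold change -0.54, unadjusted p = 0.00901, adjusted p = 0.417 in edgeR), the only one of the 37 at an unadjusted p under 0.05 there. The next in order of p, 6330403K07Rik, had 286 ± 25.4 CPM in saline and 251 ± 25.5 in wild-type libraries (0.19, unadjusted p = 0.0530, edgeR). Whether these medians differ from the members' was not tested.

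Around the chromosome 12 cluster, the protein genes made from the paternal copy took few reads. Dlk1 had 2.08 ± 1.12 CPM in saline and 1.79 ± 1.28 in wild-type libraries (log2 fold change 0.27), Rtl1 8.35 ± 1.75 and 9.77 ± 4.11 CPM (-0.23), and the deiodinase gene Dio3 3.00 ± 1.55 and 4.15 ± 2.72 CPM (-0.43). Of 13 tested genes of the locus list, 0 passed in any comparison (median -0.01 for saline against wild type). Dync1h1 was the only one at an unadjusted p under 0.05, with 900 ± 11.4 CPM in romidepsin and 752 ± 40.6 in saline libraries (0.26, unadjusted p = 0.00750, adjusted p = 1.00 in edgeR). Of 40 other imprinted genes 0 passed, and 26 were higher and 14 lower in saline than in wild-type libraries (median 0.05), among them the growth inhibitor gene Grb10 at 49.5 ± 5.98 and 39.2 ± 2.97 CPM (0.34, unadjusted p = 0.00386, edgeR) and Impact at 305 ± 19.8 and 254 ± 18.0 CPM (0.27, unadjusted p = 0.00397, edgeR).

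Of the genes beside Malat1 and Neat1, 0 of 15 tested passed, and 10 of 15 were lower in saline than in wild-type libraries (median log2 fold change -0.15). Dpf2, a subunit of chromatin remodellers, had 41.3 ± 3.76 CPM in saline and 51.3 ± 3.97 in wild-type libraries (-0.31, unadjusted p = 0.00530, adjusted p = 0.378 in edgeR), and Sipa1 11.9 ± 1.18 and 15.9 ± 1.78 CPM (-0.40, unadjusted p = 0.00891, edgeR). Rela, an NF-kappaB subunit gene, was the only one higher at an unadjusted p under 0.05, with 22.3 ± 0.858 and 18.6 ± 1.59 CPM (0.25, unadjusted p = 0.0328, edgeR). Of the genes beside Miat, Snhg11 and Pvt1, 0 of 15 tested passed (median -0.06). Hps4, near Miat, had 16.1 ± 2.92 CPM in saline and 22.3 ± 2.69 in wild-type libraries (-0.48, unadjusted p = 0.00353, edgeR), and Ppp1r16b, near Snhg11, 163 ± 24.7 and 190 ± 20.1 CPM (-0.22, unadjusted p = 0.0540, edgeR). Myc, the neighbour of Pvt1, had 3.45 ± 0.469 CPM in saline and 2.97 ± 0.245 in wild-type libraries (0.22).

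Between Meg3 and the end of Mirg, all 54 annotated microRNA hairpins had a row in the tables, and together they counted 60 and 61 reads in romidepsin libraries, 99, 19 and 45 in saline libraries, and 45, 87 and 111 in wild-type libraries. In CPM these were 5.91 and 6.28, then 6.49, 1.99 and 5.77, then 3.79, 6.55 and 8.70. Saline replicate 2 was the lowest and wild-type replicate 3 the highest, as for Meg3 and Mirg, with counts too few for any hairpin alone.

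Other measures also differed between libraries. The share of counted alignments on no annotated feature was 48.5% and 48.8% in romidepsin libraries, 48.0% and 48.5% in saline replicates 2 and 3, and 48.9%, 49.1% and 49.3% in wild-type libraries; the table of saline replicate 1 holds no such entry. Summed oligodendrocyte markers (8 genes, 0 of them at 0 in any library) were 3221 and 3696 CPM in romidepsin, 3652, 2912 and 5382 in saline, and 2988, 4848 and 4764 in wild-type libraries. Summed endothelial and pericyte markers (9 genes, 0 of them at 0) were 234 and 204, then 209, 151 and 182, then 219, 237 and 270 CPM in the same order. Saline replicate 2 was the lowest in each of these measures. The summed pan-neuronal markers were at 8527 CPM in saline replicate 2 and at 7112, their lowest, in wild-type replicate 3. Other marker sums follow for romidepsin, saline and wild-type libraries, in that order. Meningeal fibroblast markers (8 genes) summed to 564 and 448, then 901, 892 and 404, then 379, 341 and 609 CPM. Olfactory bulb markers (6 genes) summed to 22.0 and 22.0, then 27.3, 58.8 and 53.9, then 20.3, 15.6 and 40.1 CPM. As a description, the Pearson r of the endothelial and pericyte sum (log2) with the members' mean log2 CPM was 0.849 over 8 libraries, and 0.0962 without the 2 libraries farthest from the median of that sum. For the share on no annotated feature r was 0.911 over 7 libraries and 0.498 without the 2 farthest, and for the oligodendrocyte sum 0.757 over 8 libraries and 0.865 without the 2 farthest. For the sum of speckle and splicing protein genes r was 0.938 over 8 libraries and 0.946 without the 2 farthest. For the Rn45s share r was -0.819 over 8 libraries and -0.799 without the 2 farthest. In all, 12 measures, chosen after the values were seen, were compared. The rest had r from -0.541 (pan-neuronal sum) to 0.519 (astrocyte sum). The part of these measures in the members' levels was not tested. In bulk tissue, fewer cells of a type and less RNA per cell cannot be told apart.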

How the data were processed

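Gene expression was measured by sequencing poly(A) RNA from mouse prefrontal cortex in 8 libraries. Per the submitters' processing notes, bcl2fastq 2.17.1.14, TopHat2 2.1.1 and HTSeq 0.6.1 were used with the mm10/GRCm38 build. Strand setting and annotation of the counting: not given in the sources used here. Each deposited table lists whole-number read counts by gene symbol, left without normalization by the authors. The HTSeq summary entries, 5 per table in 7 tables, name no gene and were kept out of library sizes and tests.

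Low counts were removed by filterByExpr (9611 genes), libraries were scaled by TMM, and 1 quasi-likelihood fit (robust, group means only) took in the 8 libraries, with edgeR 4.0.16 (R 4.3.3). The p-values were adjusted by Benjamini-Hochberg over all 14809 tested genes, with 0.05 as the threshold. Intervals are at 95%. Levels are CPM as mean ± SD; log2 CPM used a prior count of 2. Correlations were computed in Python 3.11.15 with exact permutation p. Scripts were tested on simulated data. No pair of libraries agreed within sampling noise (lowest chi-square per degree of freedom 3.14 over 28 pairs). Transcript sequences and positions are from GENCODE M21, promoters and microRNAs from RefSeq.

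The 8 genes and the gene lists, written from textbook knowledge, were chosen with earlier results of these data known. All 8 members are named; for each, the 3 most alike tested genes; from each list, the genes that passed, otherwise the 2 with the smallest p; and locus neighbours. Other names, saline replicate 2 and wild-type replicate 3 among the libraries included, were singled out after their values were seen. Alternatives covered scaling, filtering, DESeq2 1.42.0, limma-voom (limma 3.58.1), a replicate block and left-out libraries.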

Additional observations from a re-analysis of the deposited data

How the results depend on the processing

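The number of members that passed, 0 in each comparison, was 0 under all alternatives run. The smallest adjusted p of any member over them was 0.124 for saline against wild type, 0.818 for romidepsin against saline and 0.748 for romidepsin against wild type. Among all genes, the number called, 1 for saline against wild type, numbered 12 with no filter on low counts, 31 in DESeq2 and 2 with only the 2 groups fitted; for romidepsin against saline, 0 became 2 in DESeq2; for romidepsin against wild type, 1 became 0 under upper-quartile scaling and under total counts, 2 with no filter and 4 in DESeq2. With libraries left out, the counts ran from 1 to 99, 0 to 3 and 0 to 14 in these comparisons; 54 and 99 were found without wild-type replicate 3 and without it and saline replicate 2 (an omission chosen after seeing the data). Deviations from group means showed no clear pairing by replicate number. For same-numbered libraries r was -0.175 to 0.0185 between wild type and saline, and -0.0326 to 0.103 between romidepsin and either group. Not every library correlated best with its own number. With 2 or 3 libraries per group these values cannot exclude pairing. With the replicate block 4, 0 and 0 genes and 0 members were called. Malat1 then reversed to 0.069 for romidepsin against saline and Pvt1 to 0.047 for romidepsin against wild type. With libraries left out, members' log2 fold changes that reversed for saline against wild type ran from -0.22 to 0.29 (Malat1), -0.55 to 0.00012 (Neat1) and -0.15 to 0.079 (Pvt1). For romidepsin against saline they ran from -0.27 to 0.042 (Malat1), -0.27 to 0.35 (Neat1), -0.081 to 0.26 (Meg3), -0.077 to 0.24 (Snhg11) and -0.19 to 0.25 (Pvt1), and for romidepsin against wild type from -0.34 to 0.019 (Malat1), -0.58 to 0.044 (Neat1) and -0.25 to 0.19 (Pvt1). The difference in summed share, in percentage points, ran from -0.054 to 0.088 for romidepsin against saline. Pairs with a passing correlation numbered 0 of 28 without the 2 farthest libraries and 1 to 18 with 1 library left out. Where libraries were left out, fewer samples were tested; the cause of other changes was not tested. Depth limits Mirg and Pvt1 most, and 2 romidepsin libraries limit every comparison with that group.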
